A study of Mus musculus with 6 samples.

Results

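Pirin and the antioxidant genes under the transcription factor NRF2 were examined as a set of 10 genes in mouse leukaemic pre-B cells. The set held Pir, which encodes pirin, Nfe2l2, which encodes NRF2, Keap1, which encodes its inhibitor, and 7 genes known as NRF2 targets (Hmox1, Txnrd1, Srxn1, Gclc, Gclm, Gstm1 and Nqo1). Probe sets carrying exactly 1 of these symbols were taken, and each of the 10 genes, out of 19938 genes named on the array, had 1 such probe set. The set was chosen with the values of the comparison described here already known, among them the rise of Pir. Differences of these 10 genes between the groups, and whether they passed the threshold of a fit over all genes, are therefore given as a description, without p-values.

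NRF2 is made continuously and, in unstressed cells, is held by KEAP1 for destruction by the proteasome, so that much of its control acts on the protein and not on its mRNA. Electrophiles or oxidants that modify KEAP1 release NRF2, which pairs with small MAF proteins at antioxidant response elements and drives genes for glutathione synthesis, the thioredoxin system, quinone reduction and haem breakdown. Pirin is an iron-binding nuclear protein of the cupin family that has been described as a partner of nuclear factor I and of BCL3 with NF-kB, and its human gene is known as an NRF2 target.

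The cells were C57BL/6 pre-B cells carrying BCR-ABL1 as the transforming oncogene, the fusion kinase of Philadelphia chromosome-positive leukaemia, and carried floxed alleles of Inpp5d, the gene of the lipid phosphatase SHIP1. The group labelled CRE-ERT2 (3 arrays) had been transduced with PMIP-CRE-ERT2, a Cre recombinase that tamoxifen activates, and the group labelled ERT2 (3 arrays) with PMIP-ERT2, the tamoxifen-binding part alone. Both groups carried the floxed alleles and BCR-ABL1, both were puromycin-resistant, and both had received 0.5 µM 4-hydroxytamoxifen for 2 days, so the comparison asked which transcripts differ once Cre is active in these cells. No samples had Cre in cells lacking the floxed alleles, so Cre activity and loss of Inpp5d cannot be told apart. Nothing in the labels ties the arrays of a group to independent cultures. The p-values therefore reflect the spread among these samples alone, which may be technical, and precision is limited by having 3 arrays a group.

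The labels were checked against the arrays. The probe set of Inpp5d read 13.20, 13.21 and 13.17 (log2) on ERT2 arrays 1, 2 and 3 and 13.37, 13.34 and 13.34 on the arrays labelled CRE-ERT2, so the targeted gene was not lower there; where its probes lie relative to the excised exons is unknown here, and outside them the probe set checks nothing. Of 13 pre-B cell markers with a probe set, all 13 were above the filter on dim genes (a mean log2 value of 7.35, the 25th percentile of genes), among them Cd79a, Igll1, Vpreb1, Pax5 and Ebf1. Between the groups, 12 of the 13 did not pass and 1, Dntt, was higher by 0.33 (limma adjusted p = 0.0176). Dntt lost its call in 4 of 15 alternative fits. Arrays labelled CRE-ERT2 also read brighter over dimmer genes. The median difference between groups was 0.048 in the first decile of genes by brightness, 0.12 in the fifth and -0.057 in the eighth. The median of all probe sets was 8.19 to 8.23 on the ERT2 arrays. It was 8.37, 8.32 and 8.24 on arrays 1, 2 and 3 labelled CRE-ERT2, so array 3 lay close to the ERT2 arrays. For that reason, the median difference of each gene's own brightness decile stands beside its value below.

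Pir stood apart from the other members. Its log2 values were 8.10, 8.27 and 8.14 on ERT2 arrays 1, 2 and 3 and 9.08, 8.93 and 9.27 on arrays 1, 2 and 3 labelled CRE-ERT2. Every array labelled CRE-ERT2 lay above every ERT2 array, with 0.66 log2 units between the nearest arrays of the groups. The mean was 9.09 ± 0.17 (SD, n = 3) against 8.17 ± 0.088 (SD, n = 3), a difference of 0.92 ± 0.086 (SE), or 1.90-fold (95% interval 1.65 to 2.17). Among 14953 genes tested, 2 had larger rises than Pir. Genes in Pir's brightness decile had a median difference of 0.045, which is small beside the difference of Pir, and the difference of Pir ran from 0.82 to 1.003 over 15 alternative fits.

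**Figure D1:**
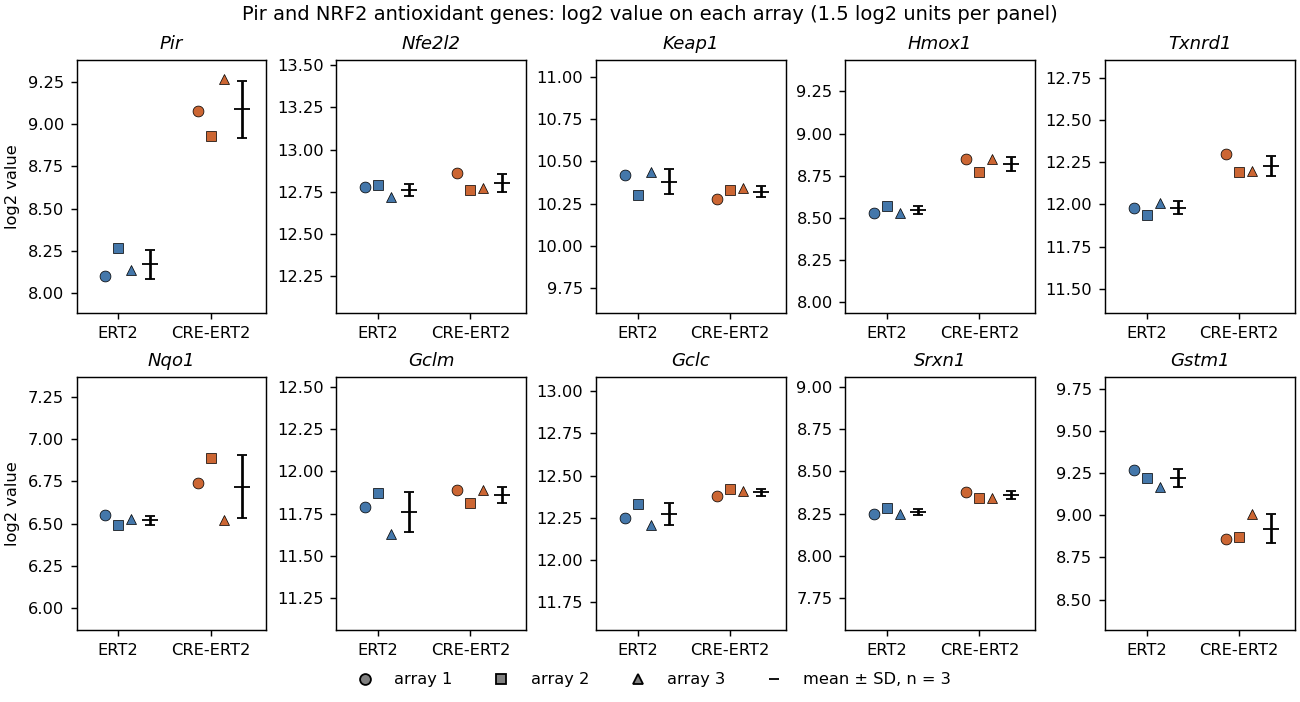
Log2 value of each of the 10 genes on each array, with ERT2 arrays in blue, arrays labelled CRE-ERT2 in orange, 1 marker shape per array number, and the mean ± SD (n = 3) beside them; each panel spans the same range of log2 units. Pir sits at 8.10 to 8.27 against 8.93 to 9.27, while the groups overlap for Nfe2l2, Keap1, Gclm and Nqo1.

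The promoter of Pir is shown because it holds the letters of the element that NRF2 binds. RefSeq windows (GRCm38.p6) were at hand for 8 of the 10 genes, and the 250 bases before each annotated start were searched on both strands for TGACNNNGC, the core of the antioxidant response element, and for TGACTCA, the AP-1 site. In the sequence before the start of Pir, on the plus strand at chrX:164269181-164269430, capitals mark the match to the core, which lies 206 to 214 bases before the start and reads on the other strand:
Pir: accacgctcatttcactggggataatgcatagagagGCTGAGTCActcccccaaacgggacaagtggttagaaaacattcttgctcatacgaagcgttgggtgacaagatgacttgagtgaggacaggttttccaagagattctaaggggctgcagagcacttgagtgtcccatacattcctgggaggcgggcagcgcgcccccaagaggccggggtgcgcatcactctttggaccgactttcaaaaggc

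The core also matched in a window of Txnrd1, Gclm and Nfe2l2, so that 4 of the 8 genes with a window held it. Those 3 stretches are printed for comparison with Pir, 5′ to 3′ along each gene with the core in capitals (chr10:82859098-82859138, plus strand, for Txnrd1, chr3:122245407-122245447, plus strand, for Gclm, and chr2:75704879-75704913, minus strand, for Nfe2l2):
Txnrd1: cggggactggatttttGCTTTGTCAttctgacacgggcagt
Gclm: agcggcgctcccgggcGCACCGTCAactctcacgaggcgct
Nfe2l2: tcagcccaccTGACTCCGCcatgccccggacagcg

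Of all 32851 promoter windows of this length, 10.2% held the core. The 8 genes had 11 windows, of which 4 held it. The match in Pir overlaps an AP-1 site, since its letters read TGACTCAGC on the other strand. An AP-1 site was present in 4.46% of all windows, and the joined letters TGACTCAGC, searched after the sequence of Pir had been seen, in 0.39%. Srxn1 held TGACTCA at 2 places (39 to 45 and 96 to 102 bases before the start) and no match to the core as spelled here. A match of letters is a description and shows no binding, and elements farther from the start were not searched.

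The genes of NRF2 itself and of its inhibitor differed little. Nfe2l2 read 12.78, 12.79 and 12.72 on the ERT2 arrays and 12.86, 12.76 and 12.77 on the arrays labelled CRE-ERT2. The groups overlapped, and the difference was 0.037 ± 0.048 (SE), with a 95% interval from -0.073 to 0.147, turning to -0.065 when arrays were centred on their medians. Keap1, which encodes the adaptor that marks NRF2 for degradation, read 10.42, 10.30 and 10.44 on the ERT2 arrays and 10.28, 10.33 and 10.34 on the arrays labelled CRE-ERT2. These values overlapped too, with a difference of -0.068 ± 0.052 (SE, interval -0.187 to 0.051) beside a median of -0.057 in its brightness decile.

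Of the 9 members above the filter on dim genes, 3 were higher (Pir, Hmox1 and Txnrd1), 1 was lower (Gstm1) and 5 did not pass an adjusted p of 0.05 in limma's fit over all genes. In that fit 7.62% of 14953 genes were called, 3.5% as higher and 4.13% as lower (45.9% of the calls were higher, against 7.38% after centring on medians); since the members were chosen on this comparison, their count is not read against these shares. The median difference of the 9 members was 0.10, against 0.026 over all genes tested.

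Hmox1 encodes haem oxygenase 1, which opens the haem ring and frees its iron. It read 8.53, 8.57 and 8.53 on the ERT2 arrays and 8.85, 8.77 and 8.85 on the arrays labelled CRE-ERT2. All arrays labelled CRE-ERT2 were above all ERT2 arrays, by 0.20 log2 units at the nearest. The means were 8.82 ± 0.043 (SD, n = 3) and 8.55 ± 0.024, a difference of 0.275 ± 0.045 (SE) or 1.21-fold, with a median of 0.045 in its brightness decile. After quantile normalization the difference of Hmox1 was 0.20, and after centring on medians 0.17, where it no longer passed.

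Txnrd1 encodes the cytosolic thioredoxin reductase, a selenoenzyme that keeps thioredoxin reduced with NADPH. Its values were 11.98, 11.94 and 12.01 on the ERT2 arrays and 12.30, 12.19 and 12.20 on the arrays labelled CRE-ERT2. The groups did not overlap, and 0.18 log2 units lay between their nearest arrays. The difference was 0.26 ± 0.049 (SE) or 1.19-fold, while genes of its brightness decile had a median of -0.013. Centring on medians brought the difference of Txnrd1 to 0.15, where the call ended, as it did without the filter on dim genes.

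Srxn1 encodes sulfiredoxin, which repairs over-oxidised peroxiredoxins. It read 8.25, 8.28 and 8.25 on the ERT2 arrays and 8.38, 8.34 and 8.34 on the arrays labelled CRE-ERT2, again without overlap. Its difference of 0.093 ± 0.042 (SE, interval -0.003 to 0.190) was smaller than the median of 0.12 in its brightness decile and turned to -0.005 after quantile normalization and -0.009 after centring.

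Gclc and Gclm encode the catalytic and the modifier subunit of glutamate-cysteine ligase, the rate-limiting enzyme of glutathione synthesis. Gclc read 12.25, 12.33 and 12.21 on the ERT2 arrays and 12.38, 12.42 and 12.41 on the arrays labelled CRE-ERT2. Its groups did not overlap, yet only 0.043 log2 units separated them, with a difference of 0.14 ± 0.049 (SE, interval 0.026 to 0.249) that did not pass. Gclm read 11.79, 11.87 and 11.63 on the ERT2 arrays and 11.89, 11.81 and 11.89 on the arrays labelled CRE-ERT2. The groups overlapped for Gclm, whose difference was 0.10 ± 0.065 (SE, interval -0.049 to 0.249) and -0.002 after centring.

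Gstm1, a glutathione transferase of the mu class, ran the other way. It read 9.27, 9.22 and 9.17 on the ERT2 arrays and 8.86, 8.87 and 9.01 on the arrays labelled CRE-ERT2. All arrays labelled CRE-ERT2 were below all ERT2 arrays, by 0.15 log2 units at the nearest. The means were 8.92 ± 0.086 (SD, n = 3) and 9.22 ± 0.051, a difference of -0.30 ± 0.057 (SE) or 1.23-fold lower, while its brightness decile had a median of 0.045. Genes of the mu class are close in sequence, and signal from relatives in the probe set of Gstm1 was not tested. Of the relatives above the filter, Gstm3 had a difference of -0.22, Gstm4 -0.23, Gstm2 0.12 and Gstm7 0.072, none of which passed.

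Nqo1 encodes the quinone reductase often used as a readout of NRF2 activity. It was the 1 member below the filter on dim genes, brighter than only 13.3% of genes on the array. Its values were 6.55, 6.49 and 6.53 on the ERT2 arrays and 6.74, 6.89 and 6.52 on the arrays labelled CRE-ERT2. Arrays 1 and 2 of the latter group were high and array 3 was level with the ERT2 arrays, so the groups overlapped; the difference of 0.20 stood beside a median of 0.099 in its brightness decile.

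**Figure D2:**
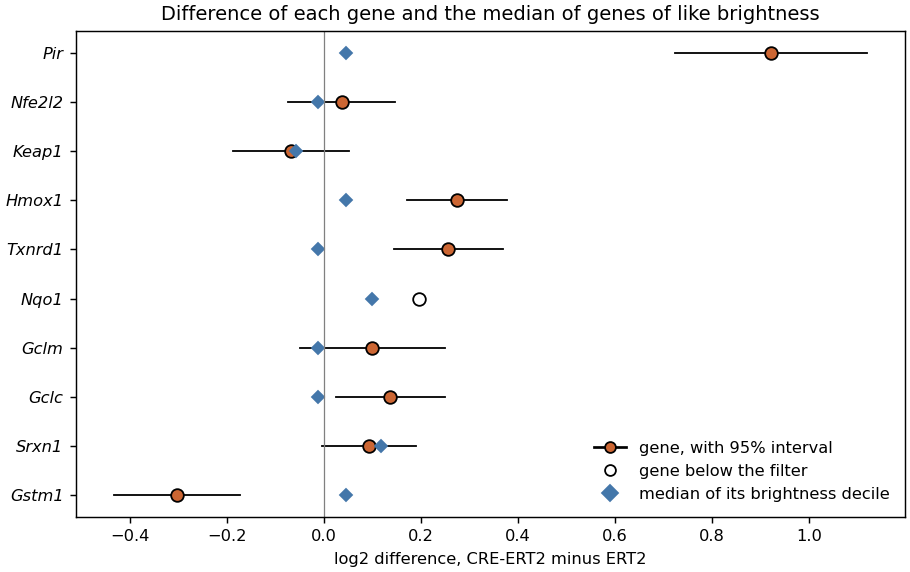
Log2 difference (CRE-ERT2 minus ERT2) of each gene as a circle with its 95% interval, and the median difference of genes in its brightness decile as a blue diamond; the open circle is Nqo1, below the filter on dim genes, with no interval. Pir lies at 0.92 and Gstm1 at -0.30, while Srxn1 and Keap1 lie close to their diamonds.

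Groups were fully separated for 6 of the 9 members above the filter (5 higher and 1 lower), and for 38.5% of all genes tested. As the members were chosen on this comparison, their count is not read against that share. Fits with 1 array left out reuse the arrays on which the set was chosen. They describe how far the calls rest on single arrays and give no independent evidence. Pir passed in 6 of 6 such fits. Hmox1 and Txnrd1 passed in 2 of 6 and Gstm1 in 1 of 6: all 3 genes failed without ERT2 array 1, 2 or 3 and without array 1 labelled CRE-ERT2, and Gstm1 also without array 2 labelled CRE-ERT2. Without ERT2 array 1, 2 or 3, or without array 1 labelled CRE-ERT2, the members called therefore fell from 4 to 1, Pir. The differences moved less than the calls, from 0.26 to 0.30 for Hmox1, 0.22 to 0.28 for Txnrd1 and -0.35 to -0.28 for Gstm1.

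**Figure D3:**
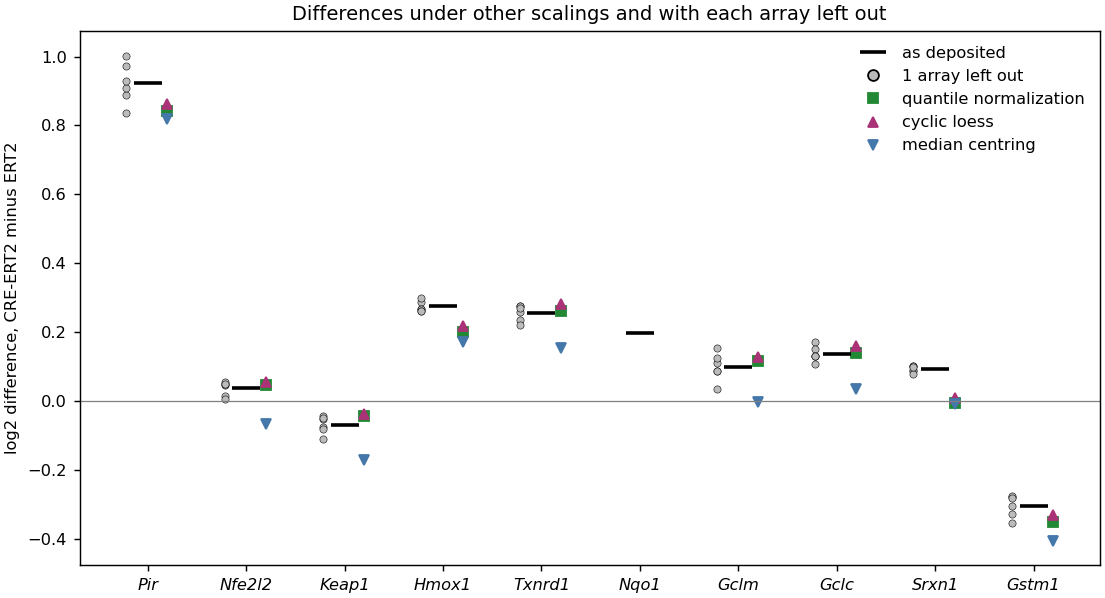
Log2 difference (CRE-ERT2 minus ERT2) of each gene as deposited (black bar), with 1 array left out (grey circles) and after quantile normalization, cyclic loess or centring on medians (coloured markers); Nqo1, below the filter, has the deposited value only. Pir stays between 0.82 and 1.003, and Nfe2l2, Gclm and Srxn1 fall to or below 0 after centring.

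Beyond the members, 139 other genes were listed by role, most of the NRF2 system and the rest genes of proteins that pirin has been described to bind. Of the 139, 130 had a named probe set and 120 were above the filter, 8 of them from the pirin list. Of these 120, 2 were higher, 7 lower and 111 did not pass, which is 7.5% called against 7.62% of all genes. Their median difference was -0.023, with 51 genes above 0 and 69 below. Over all genes tested the median was 0.026, with 8469 genes above 0 and 6484 below. Most of the 120 lay in brightness deciles 7 to 10, where the median differences of all named genes were -0.057 to -0.013. The list medians here and below were not corrected for brightness, so they are not read as a fall of the pathway. Chac1 and Idh1 passed in each of the 15 other settings, while each of the other 7 genes lost its call in 4 to 8 of them, among them the fits without ERT2 array 2 and without array 1 labelled CRE-ERT2.

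Among 16 genes that regulate or partner NRF2, 1 was higher and 15 did not pass, with a median of 0.002. The one was Bach2, which encodes a repressor that can occupy the same elements as NRF2 and holds roles in B cells; it rose by 0.27 ± 0.055 (SE, limma adjusted p = 0.0321), and centring on medians ended its call. Bach1, the related repressor of Hmox1, had a difference of -0.004 (adjusted p = 0.963). The MAF partner genes Mafk, Mafg and Maff had -0.056, 0.017 and 0.008, and Sqstm1, which encodes an adaptor that can bind KEAP1, had 0.096 (adjusted p = 0.156). Dpp3, another KEAP1-binding protein gene, had -0.14 (adjusted p = 0.0841).

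In the thioredoxin and peroxiredoxin system, 1 of 16 genes was higher, 2 were lower and 13 did not pass. Txnrd3, a further thioredoxin reductase gene, fell by 0.28 ± 0.044 (SE, limma adjusted p = 0.0147), opposite in sign to Txnrd1. Its values were 12.19, 12.14 and 12.15 on the ERT2 arrays and 11.90, 11.84 and 11.90 on the arrays labelled CRE-ERT2. Prdx4, the peroxiredoxin gene of the endoplasmic reticulum, fell by 0.30 (adjusted p = 0.0412), and Sesn2, a stress-induced sestrin gene, rose by 0.30 (adjusted p = 0.0193), with its call lost after centring. Prdx1, a classical NRF2 target, had -0.031 and Txn1, the thioredoxin gene, 0.019, neither of which passed.

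Of 13 genes of glutathione synthesis and use, 0 were higher, 2 lower and 11 did not pass. Chac1, which encodes an enzyme that degrades glutathione, had the larger fall. It read 10.15, 10.01 and 10.02 on the ERT2 arrays and 9.43, 9.57 and 9.49 on the arrays labelled CRE-ERT2, a difference of -0.56 ± 0.059 (SE, limma adjusted p = 0.00343). Cth, which encodes the enzyme that makes cysteine from cystathionine, fell by 0.31 (adjusted p = 0.0172). Gsr, the glutathione reductase gene, had -0.18 (adjusted p = 0.0541). The cystine transporter gene Slc7a11, another common NRF2 readout, lay below the filter with values from 6.42 to 6.69 over all 6 arrays.

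Of 22 genes of glutathione transfer, conjugation and export, Mgst1, a microsomal transferase gene, was lower (-0.42 ± 0.090, SE, limma adjusted p = 0.0343) and 21 did not pass, among them Gstt2 (0.21, adjusted p = 0.0536). Of 14 quinone, aldehyde and carbonyl reductase genes, Cbr1, a carbonyl reductase gene, was lower (-0.26 ± 0.046, adjusted p = 0.0207) and 13 did not pass. Akr1c12, an aldo-keto reductase gene, had the highest value of that list, 0.41 ± 0.12 (adjusted p = 0.0694), and Aldh2, the mitochondrial aldehyde dehydrogenase gene, had -0.16 (adjusted p = 0.0674). Nqo2, the relative of Nqo1, had 0.021 (adjusted p = 0.866).

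Of 10 genes that supply NADPH, which both thioredoxin and glutathione reductases use, Idh1, the cytosolic NADP-dependent isocitrate dehydrogenase gene, fell by 1.04 ± 0.10 (SE, limma adjusted p = 0.00225) and 9 did not pass. Its values were 10.48, 10.47 and 10.67 on the ERT2 arrays and 9.48, 9.31 and 9.71 on the arrays labelled CRE-ERT2, so the groups lay far apart. Mthfd2, a mitochondrial folate enzyme gene, had -0.19 (adjusted p = 0.0632) and Idh2, the mitochondrial relative of Idh1, -0.10 (adjusted p = 0.171). The other NRF2-responsive genes of that list, Pgd, Taldo1, Tkt and Me1, lay between -0.039 for Pgd and 0.067 for Taldo1. Of 17 genes of haem breakdown and iron handling, 0 passed in limma; Ftl1, the ferritin light chain gene, had 0.16 ± 0.044 (adjusted p = 0.0587), with 12.94 to 13.01 on the ERT2 arrays and 13.11 to 13.16 on the arrays labelled CRE-ERT2. Aco1 and Ireb2, which encode the iron regulatory proteins, had -0.19 (adjusted p = 0.0558) and -0.15 (adjusted p = 0.0563). Fth1, Blvrb, Hmox2 and Slc48a1 lay between -0.023 for Blvrb and 0.033 for Hmox2. Of 4 superoxide dismutase, chaperone and catalase genes above the filter, 0 passed, with Sod1 at 0.12 (adjusted p = 0.0973), Cat at 0.083 (adjusted p = 0.190) and Sod2 at -0.081 (adjusted p = 0.254). Before adjustment, 3 genes of the iron list and 1 of the dismutase list had p under 0.05. Values that low before adjustment were common over all genes tested, so neither count is read as a change.

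**Figure D4:**
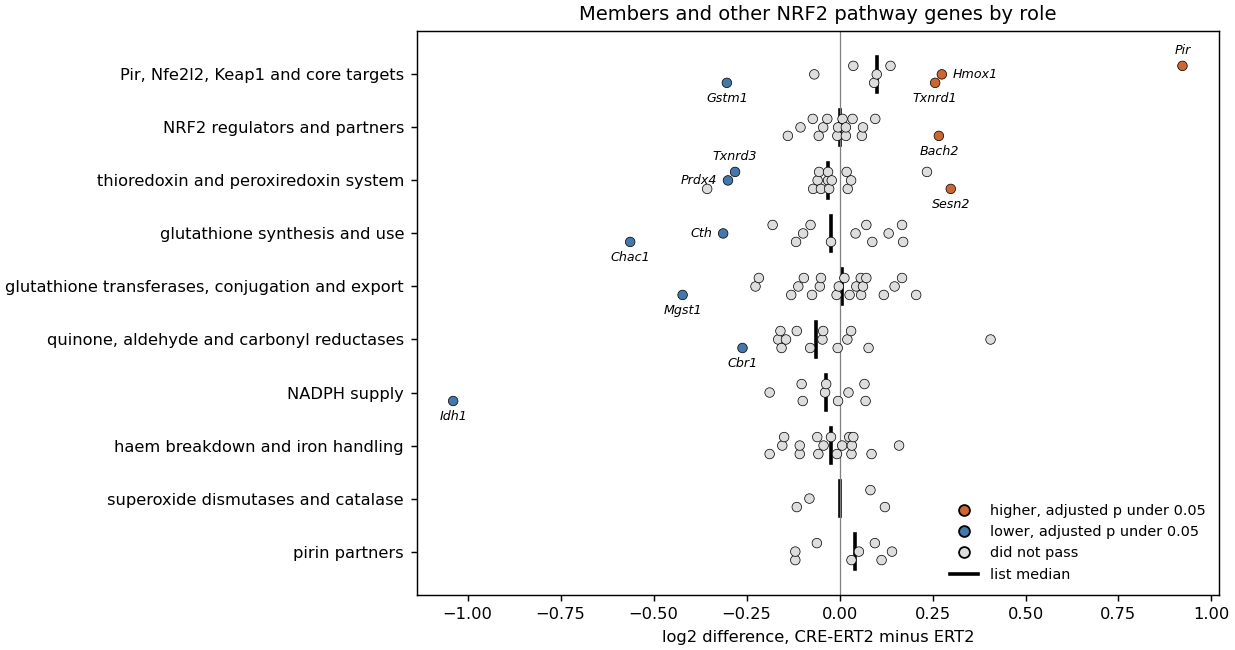
Log2 difference (CRE-ERT2 minus ERT2) of each gene above the filter on dim genes, by role, with genes that passed an adjusted p of 0.05 in colour and named, and the list median as a black bar. Idh1 at -1.04 and Chac1 at -0.56 lie lowest, and outside the top row Bach2 and Sesn2 are the named rises.

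Genes of proteins that pirin has been described to bind did not pass. Of 8 above the filter, 0 were called by limma and 3 had p under 0.05 before adjustment, with a median of 0.042. Such unadjusted values were common over all genes tested, so the 3 are not read as a change of these genes. Bcl3, which encodes the IkB-family coactivator, read 8.95 to 8.99 on the ERT2 arrays and 9.06 to 9.19 on the arrays labelled CRE-ERT2, a difference of 0.14 ± 0.049 (SE, adjusted p = 0.0939). The NF-kB gene Rela had -0.061, and the nuclear factor I genes Nfia, Nfic and Nfix had -0.12, 0.11 and -0.12. Smarca4, a chromatin remodeller gene, had 0.095 (adjusted p = 0.148).

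Pir lies on the X chromosome, and its neighbours there had smaller differences. The 4 nearest genes on either side with a named probe set were Car5b, Siah1b, Cltrn and Bmx before it and Vegfd, Piga, Asb11 and Asb9 after it. Their differences ran from -0.14 for Siah1b to 0.24 for Vegfd, and 6 of the 8 were below the filter on dim genes. Vegfd, the nearest gene after Pir, which encodes a lymphangiogenic growth factor, read 7.03, 7.15 and 7.16 on the ERT2 arrays and 7.37, 7.39 and 7.32 on the arrays labelled CRE-ERT2. Its groups did not overlap, while the median of its brightness decile was 0.11. Of the 2 neighbours above the filter, Siah1b (adjusted p = 0.161) and Piga (adjusted p = 0.280), neither passed in limma.

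**Figure D5:**
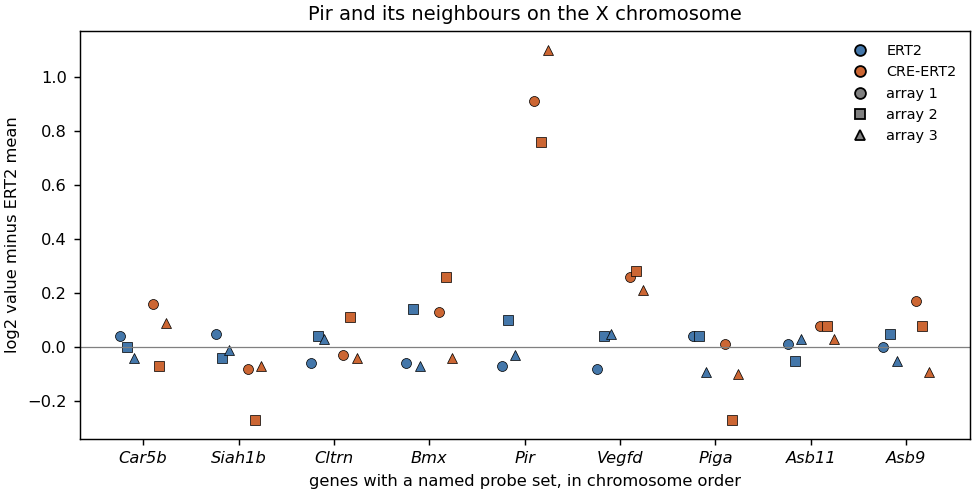
Log2 value of Pir and of its 4 nearest genes with a probe set on each side, minus the ERT2 mean of each gene, on each array; genes are in chromosome order and not to scale along the chromosome. All 3 arrays labelled CRE-ERT2 are raised for Pir, while the differences of the neighbours run from -0.14 for Siah1b to 0.24 for Vegfd.

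The 6 genes with the pattern most like that of Pir, by the root mean square distance between mean-centred log2 values over the 6 arrays, were Lyz2 (0.089), P2rx3 (0.15), Vsir (0.16), Igf1 (0.17), Ptpn14 (0.175) and Fosb (0.18). The first was Lyz2, which encodes lysozyme and is a myeloid marker. It read 9.25, 9.38 and 9.10 on the ERT2 arrays and 10.05, 9.85 and 10.21 on the arrays labelled CRE-ERT2. In both Pir and Lyz2 array 3 labelled CRE-ERT2 was the highest and array 2 the lowest of its group, and ERT2 array 2 was the highest control. Vsir, the gene of the checkpoint ligand VISTA, had the same order of the arrays labelled CRE-ERT2 (10.72, 10.66 and 10.76), and the other 4 did not. Likeness of patterns was measured on the comparison that chose Pir and carries no test. The values were not scaled, so likeness to Pir also reflects a large rise. In the order named, the 6 genes ranked 5, 8, 13, 16, 12 and 11 from the highest difference among all genes tested.

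Some markers of myeloid cells, in which haem oxygenase 1 is also made, were higher beside Pir and Hmox1. Of 15 myeloid markers, 7 were above the filter, of which 2 were higher (Lyz2, by 0.79, and Cebpa, by 0.27), 0 lower and 5 did not pass. Lyz2 passed in 15 of 15 alternative fits, while Cebpa lost its call in 7 of 14, among them those after quantile normalization or centring and those without ERT2 array 1, 2 or 3 or array 1 labelled CRE-ERT2. The mean log2 value of the whole list was 7.60 to 7.62 on the ERT2 arrays and 7.71 to 7.80 on the arrays labelled CRE-ERT2. Most genes of that list lay in brightness deciles 2 to 5, where the median differences of all named genes were 0.099 to 0.117. The list means were not corrected for this shift of dim genes, so they are not read as a rise of myeloid markers. Itgam, Csf1r, Adgre1, Cd14, Ly6g, Csf3r, S100a8 and S100a9 were below the filter, and Mpo (0.20), Cebpb (0.145), Elane (-0.001), Cd68 (-0.11) and Fcgr3 (-0.11) did not pass. Of 10 stromal markers, 3 were below the filter, and the list means were 7.74 to 7.81 on the ERT2 arrays and 7.88 to 8.01 on the arrays labelled CRE-ERT2. These genes lay in brightness deciles 1 to 6, with median differences of 0.045 to 0.117, and the stromal list means were not corrected for that either. All 7 stromal markers above the filter had differences above 0, with a median of 0.175. Groups were fully separated for 6 of the 7, all higher, and in either direction for 38.5% of all genes tested. Cxcl12 lay below the median of its brightness decile (0.059 against 0.116), and the others lay above theirs. Of the 7, 1 passed. That was Sparc, higher by 0.24 (limma adjusted p = 0.0207) beside a median of 0.12 in its brightness decile. Sparc lost its call in 8 of 14 alternative fits. The list means overlapped for 7 erythroid and megakaryocyte markers, of which 2 were below the filter (7.73 to 7.76 against 7.75 to 7.93). They overlapped too for 9 T and NK cell markers, of which 5 were below the filter (7.29 to 7.37 against 7.31 to 7.46). The 1 gene called on the T and NK list was Cd2, which fell by 0.64 and passed in 15 of 15 alternative fits. Cd2 was brighter than 77.1% of genes on the array, while Cd3e of the same list read only 8.08 to 8.27 over all arrays. Which cells gave the signal of Cd2 was not tested, and its fall is not read as one of T or NK cells. The part of these markers in the differences of Pir and Hmox1 was not tested, and in bulk RNA more cells of a type and more RNA per cell cannot be told apart.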

How the data were processed

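Total RNA of 6 samples was measured on mouse Affymetrix arrays. The authors deposited log2 values, 1 for each of 35556 probe sets and array; RMA and Partek 6.5 are named per the submitters' processing notes, without order or settings, and no genome build is stated there. Values were used as deposited. The array's annotation table gave 1 symbol for 21789 probe sets, several for 1621 (not used) and none for 12146; of genes with more than 1 probe set (999 of 19938), the one with the highest mean was used. Genes whose mean lay under the 25th percentile (4985) were not tested.

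Differences between the groups were tested in R 4.3.3 using limma 3.58.1 (lmFit, eBayes, two-sided, no covariate), with Benjamini-Hochberg adjustment over 14953 genes and a threshold of 0.05. Differences are CRE-ERT2 minus ERT2 means of log2 values, with moderated standard errors. The procedure was tested on simulated data. Brightness deciles were taken over all named genes. Promoter sequences came from RefSeq (GRCm38.p6).

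The members and the lists were chosen with earlier results of these data known. Genes named are the members, Inpp5d, genes called and the lowest p-values in each list, the 6 nearest patterns, the 4 neighbours on each side and markers; Gstm, MAF and NF-kB relatives and other well-known targets were added after their values were seen. Alternatives were other filters, the mean of probe sets, 3 scalings, 2 variance models, the replicate number as a block, a threshold of 0.01 and each array left out. Pandas 2.3.3 and matplotlib 3.10.9 were used in Python 3.11.15.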

Additional observations from a re-analysis of the deposited data

How the results depend on the processing

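The count of genes called, 1140, was 437 without a filter on dim genes, 3020 after centring on medians, 2147 with trend and robust estimation, 3993 with array weights, 143 at a threshold of 0.01 and 116 to 3042 with 1 array left out. The 4 members called became 2 after centring, 1 at the stricter threshold and 1 to 4 with an array left out. The 9 other pathway genes called became 15 with a filter at the 50th percentile, 29 after centring, 24 with trend and robust estimation, 26 with array weights, 2 at the stricter threshold and 2 to 20 with an array left out; the cause was not tested. Centring moved the median difference of all genes by -0.10. Among the fits with 1 array left out, the largest count came without array 3 labelled CRE-ERT2 (3042) and the smallest without ERT2 array 1 (116). With the replicate block, 147 genes, 1 member (Pir) and 2 other pathway genes were called. Deviations of same-numbered arrays correlated at -0.40 to 0.069, and 1 of 6 arrays lay closest to its own number, so the numbers were not taken as pairs. Pir kept its direction and passed in all 15 alternative fits, which use the same arrays on which it was chosen. Nqo1, below the filter, was measured only near the dim end of the array.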
